A study of Mus musculus with 8 samples.

Results

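The nuclear genes of respiratory complexes II, III, IV and V and of cytochrome c were compared between hemophagocytes, which are macrophages that have engulfed blood cells, and resting macrophages of the mouse spleen. Members were chosen by their symbol in the array's annotation: Sdha to Sdhd for complex II, Cyc1 and all symbols beginning with Uqc for complex III, Cycs for cytochrome c, symbols beginning with Cox4 to Cox8 for complex IV, and symbols beginning with Atp5 for complex V. This gave 51 of the 19938 genes measured, each read by 1 probe set that carries no other gene, the brightest on average across the 8 arrays. They fell into 4 genes of complex II, 12 of complex III, 1 of cytochrome c, 17 of complex IV and 17 of complex V. Cox7c was listed only on 3 probe sets shared with another gene and was not analysed here.

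All mice were wild type male C57Bl/6j animals aged 8 weeks. The hemophagocyte group came from mice injected intraperitoneally on alternate days, 4 times in all, with 37.5 ug of CpG1826, a synthetic DNA that stimulates Toll-like receptor 9, and 200 ug of 1B1.3A, an antibody that blocks the IL-10 receptor. The resting macrophage group came from mice given 200 uL of PBS on the same schedule. From spleen touch preparations, 20 target cells per mouse were laser-dissected and pooled, and the amplified RNA was read on Affymetrix Gene ST 1.0 arrays, 4 per group. The labels do not say how many mice stand behind an array, so the spread between arrays may be partly technical. Macrophages without engulfed cells were not arrayed from the treated mice, so engulfment cannot be told apart from treatment. In such pools, fewer cells that carry a transcript and less of it per cell cannot be told apart either.

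Oxidative phosphorylation passes electrons along protein complexes of the inner mitochondrial membrane. Complex II, which is also an enzyme of the citric acid cycle, feeds electrons from succinate to ubiquinone, complex III passes them on to cytochrome c, and complex IV, cytochrome c oxidase, hands them to oxygen. Complexes III and IV pump protons, and complex V, the ATP synthase, uses the return of those protons to make ATP. Complexes III, IV and V combine a few subunits encoded in mitochondrial DNA with many nuclear subunits, several of which are very small proteins. In macrophages this system is known for its activity in alternative activation and for its curtailment after stimulation through Toll-like receptors, and free cytochrome c in the cytosol starts the apoptosome.

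No member passed the test over all genes. Even so, 6 members stood more than 1 log2 unit higher in hemophagocytes, namely Cox6c, Cox6a1, Atp5md, Cox6b1, Cycs and Atp5mpl. Among all genes, 0.346% had a change of that size. With probe sets averaged per gene, Cycs was not among these 6 and had a change of 0.67. Which hemophagocyte arrays stood high differed from one of these members to the next. Hemophagocytes 3 and 5, on which most high values lay, also had the highest values of a few macrophage, neutrophil and platelet markers, such as Cd68 (9.66 and 10.52, against 7.29 to 7.50 on resting arrays). Most markers of those lists did not stand so high. The median marker deviated from its resting mean on these 2 arrays by 0.02 and 0.25 (macrophage), -0.11 and 0.01 (neutrophil) and -0.11 and 0.04 (platelet). By place in the complexes, the broadly expressed subunits of complex IV, the small membrane subunits of complex V and cytochrome c carried the higher values, while complex II, the catalytic subunits of complex V and the tissue-restricted isoforms of complex IV stood level between the groups within their spread.

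With limma and Benjamini-Hochberg adjustment over 19938 genes, 0 of 51 members were called higher, against 0.01% of all genes, and 0 were called lower, against 0.0%. At an unadjusted p under 0.05 there were 10 members higher, against 1.53% of genes, and 0 lower, against 5.05%. These 10 were Cox6c, Cycs, Atp5mpl, Cox6a1, Atp5md, Cox6b1, Atp5e, Atp5k, Cox5b and Uqcr11, and limma gave each an adjusted p = 0.75. The 4 hemophagocyte arrays lay above the 4 resting arrays in 4 members, Cox6c, Cox6b1, Atp5k and Atp5l, against 0.802% of genes, and below them in 0 members, against 2.9%. No member had a change below -1 (0 of 51, against 0.0201% of genes). In all, 32 of 51 members had a change above 0, against 36.1% of genes (36 of 51 against 50.9% after cyclic loess normalization of the arrays), and the median change as deposited was 0.07 over the members and -0.04 over all genes. In 46 of the 51 members the resting mean lay below the 95th percentile of the resting means of 1194 olfactory and vomeronasal receptor genes, so detection in resting macrophages could not be judged from level alone. Changes are therefore given as log2 differences of array signal and not as folds. The mean over the members was 0.34, far above their median, because a few members held large changes.

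**Figure D1:**
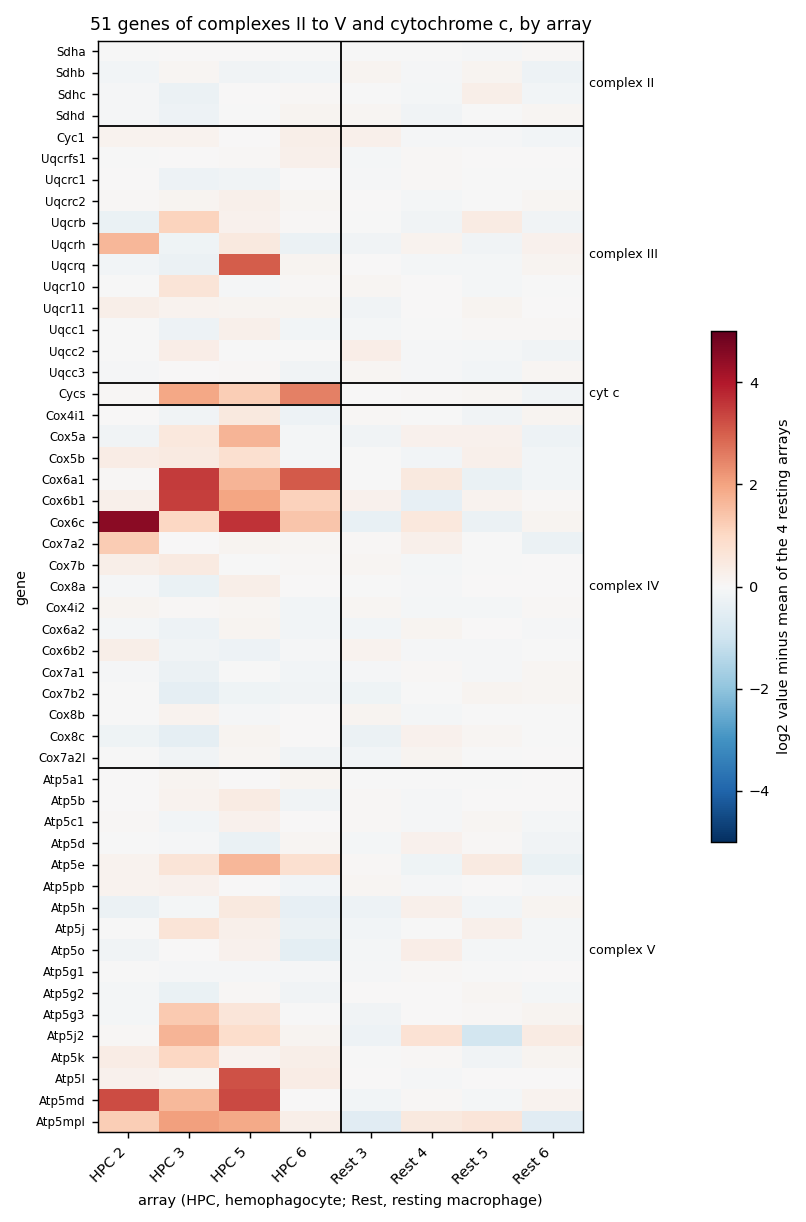
Log2 value of each of the 51 genes on each array, as the difference from the mean of the 4 resting arrays (colour), with hemophagocyte arrays on the left and resting macrophage arrays on the right. Strong colours sit in a few rows of complexes IV and V and cytochrome c, on the hemophagocyte side, and change from array to array, as in Cox6c, with 11.23 on hemophagocyte 2 and 7.75 on hemophagocyte 3.

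The start regions of 4 of these genes are shown because Cox6b1, Atp5k and Atp5l are members whose groups did not overlap and Cox6a1 had the second largest change. Cox6c is named only. The sequences are RefSeq's for build GRCm38.p6, from 250 bases before to 50 bases after the gene's start, 5′ to 3′ along the gene. Capitals mark matches, on either strand, to a motif of nuclear respiratory factor 1 (GCGCANGCG, which on the 2 strands can match shifted by 1 base) or of the ETS family, which includes the nuclear respiratory factor GABP (CCGGAAG).
Cox6a1, chr5:115348909-115349208, minus strand: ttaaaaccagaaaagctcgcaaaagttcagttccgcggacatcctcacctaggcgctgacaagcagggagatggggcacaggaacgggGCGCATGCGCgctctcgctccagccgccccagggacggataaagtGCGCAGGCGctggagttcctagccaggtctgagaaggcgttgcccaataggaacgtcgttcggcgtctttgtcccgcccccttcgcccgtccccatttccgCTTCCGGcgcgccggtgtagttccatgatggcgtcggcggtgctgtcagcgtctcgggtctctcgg
Cox6b1, chr7:30626065-30626364, minus strand: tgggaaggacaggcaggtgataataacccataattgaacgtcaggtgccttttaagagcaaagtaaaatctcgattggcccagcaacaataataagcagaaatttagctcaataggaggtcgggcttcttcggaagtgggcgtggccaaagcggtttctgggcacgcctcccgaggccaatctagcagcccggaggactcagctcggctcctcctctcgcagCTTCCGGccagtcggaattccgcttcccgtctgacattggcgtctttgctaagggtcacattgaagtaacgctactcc
Atp5k, chr5:108434350-108434649, minus strand: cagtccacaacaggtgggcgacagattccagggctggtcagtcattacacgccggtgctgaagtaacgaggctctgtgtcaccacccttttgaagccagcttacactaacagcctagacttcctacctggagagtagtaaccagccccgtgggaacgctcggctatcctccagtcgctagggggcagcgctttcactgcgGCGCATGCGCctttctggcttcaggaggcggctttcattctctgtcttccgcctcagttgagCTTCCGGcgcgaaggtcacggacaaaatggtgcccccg
Atp5l, chr9:44920693-44920992, minus strand: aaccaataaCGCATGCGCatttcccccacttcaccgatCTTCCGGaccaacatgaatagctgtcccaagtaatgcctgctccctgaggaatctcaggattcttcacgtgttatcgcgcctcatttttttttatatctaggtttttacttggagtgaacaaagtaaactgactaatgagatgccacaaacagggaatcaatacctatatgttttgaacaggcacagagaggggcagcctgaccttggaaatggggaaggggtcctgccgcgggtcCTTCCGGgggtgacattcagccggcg
Promoter entries were found for 39 of the 51 members, in 42 windows. The NRF1 motif stood in 33.3% of the members' windows and in 6.25% of all 32851 windows, and the ETS motif in 31.0% and 8.86%. A motif of YY1 (AAGATGGC) stood in 9.52% against 2.75%, and one of the estrogen-related receptors (TCAAGGTCA) in 4.76% against 0.423%. No NRF1 match overlapped an ETS match in the 4 windows printed, and none of these held the motif of YY1 or of the estrogen-related receptors. Of the 8 members with an unadjusted p under 0.05 and an entry, 6 held the ETS motif and 4 the NRF1 motif, and of the 31 others, 7 held the ETS motif and 10 the NRF1 motif. This split by p was chosen after the values were seen and carries no test. A match describes these letters and is not evidence of binding.

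Complex II showed no member with a value that set the groups apart. Sdha, the flavoprotein that oxidises succinate, averaged 6.79 ± 0.03 in hemophagocytes and 6.80 ± 0.06 in resting macrophages (log2, mean ± SD, n = 4 each), a change of -0.01 (SE 0.06). Sdhb, the iron-sulfur subunit, had a change of -0.08 (SE 0.10), and the membrane anchors Sdhc and Sdhd -0.08 (SE 0.12) and -0.04 (SE 0.10). All 4 changes lay within their standard errors. The median of the complex was -0.06, close to the -0.04 of all genes, with 0 of 4 members above 0.

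Complex III held its higher values in the small subunits. The 4 redox and core subunits had a median change of 0.11 and the 3 assembly factors one of -0.04, whereas all 5 small subunits had changes above 0, with a median of 0.27. That median was the change of Uqcrb, whose other probe sets had 0.07 and 0.31. The one with 0.07 was brighter on the resting arrays, with a mean of 5.03 against 4.95. Uqcrb and Uqcr10, given after their values were seen, stood above every resting array only on hemophagocyte 3, at 6.08 and 8.12. Uqcr11, one of the smallest subunits, had 7.53, 7.44, 7.39 and 7.38 on hemophagocytes 2, 3, 5 and 6, against 7.06, 7.27, 7.38 and 7.27 on resting macrophages 3, 4, 5 and 6. Its hemophagocyte arrays lay close together, and 3 of 4 stood above every resting array, with a change of 0.19 (SE 0.08). Uqcrc2, a core protein, had a change of 0.14 (SE 0.07), and Cyc1, the cytochrome c1 that delivers electrons to cytochrome c, 0.16 (SE 0.10).

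The largest changes in complex III rested on 1 array each. Uqcrq, a small ubiquinone-binding subunit, had 6.74, 6.57, 9.88 and 6.99 in hemophagocytes, against 6.89, 6.78, 6.76 and 7.01 in resting macrophages. Hemophagocyte 5 alone stood high, and without it the change of 0.69 became -0.09. Uqcrh, the acidic hinge protein that helps bind cytochrome c, had 6.90, 5.01, 5.74 and 4.94 in hemophagocytes, against 5.04, 5.39, 5.05 and 5.45 in resting macrophages. Here hemophagocyte 2 was the high array, and the change of 0.41 became -0.01 without it. The median of complex III, 0.15, was 0.06 without hemophagocyte 3 and 0.09 without hemophagocyte 5.

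Cytochrome c itself stood high on 3 of 4 hemophagocyte arrays. Cycs, the somatic cytochrome c gene, had 5.84, 7.72, 7.01 and 8.29 on hemophagocytes 2, 3, 5 and 6, against 5.79, 5.82, 5.87 and 5.61 on the resting arrays. Hemophagocyte 2 lay within the resting range and the other hemophagocytes well above it. The group means were 7.21 ± 1.06 and 5.77 ± 0.11 in hemophagocytes and resting macrophages (SD, n = 4 each), a change of 1.44 (SE 0.40). The change was 1.08 without hemophagocyte 6 and 1.27 without hemophagocyte 3. Without hemophagocyte 2, the array in the resting range, it was 1.90 (SE 0.24) and Cycs passed over all genes (limma adjusted p = 0.035). With resting macrophage 3 also left out the change was 1.91 and did not pass (limma adjusted p = 0.13). Its probe sets did not all show this: the other 2 had changes of 0.96 and -0.39, and the mean of all 3 gave 0.67. The probe set used was the brightest over all 8 arrays, a choice to which the high hemophagocyte values contributed. On the resting arrays alone the probe set with -0.39 was brightest, with a mean of 5.97 against 5.77 for the one used and 5.66.

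The 17 complex IV genes were 9 broadly expressed subunits, 7 isoforms largely restricted to other tissues and Cox7a2l. Of the 9 broadly expressed subunits 8 had changes above 0, with a median of 0.39 and a mean of 0.87, and 4 had an unadjusted p under 0.05. Of the 7 tissue-restricted isoforms 2 had changes above 0, with a median of -0.08, a range of -0.21 to 0.04, and 0 at that p. The 2 sets were not tested against each other, since genes are not replicates. The median of the broadly expressed subunits was 0.26 without hemophagocyte 5. Without hemophagocytes 3 and 5 together it was 0.17, with 6 of the 9 above 0, and that of the restricted isoforms was -0.09.

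Cox6c, a small subunit that spans the membrane once, had the largest change among the members. Its values were 11.23, 7.75, 10.33 and 8.09 on hemophagocytes 2, 3, 5 and 6, against 6.34, 7.25, 6.42 and 6.86 on resting macrophages 3, 4, 5 and 6. Every hemophagocyte array lay above every resting array, with hemophagocytes 2 and 5 highest. The change was 2.63 (SE 0.66), and 2.0 without hemophagocyte 2. Cox6a1, the broadly expressed form of a subunit that modulates the enzyme's activity, had 6.35, 9.76, 7.99 and 9.33, against 6.25, 6.77, 5.93 and 6.16 in resting macrophages. It was high on hemophagocytes 3, 5 and 6, while hemophagocyte 2, the highest array for Cox6c, lay inside the resting range. The change was 2.08 (SE 0.59), 1.61 without hemophagocyte 3 and 1.56 without hemophagocytes 3 and 5. Without hemophagocyte 2 it was 2.75 (SE 0.36) and passed (limma adjusted p = 0.044). With resting macrophage 3 also left out it was 2.74 and did not pass (limma adjusted p = 0.17).

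Cox6b1, a subunit on the intermembrane face that bridges the monomers of the dimeric enzyme, had 6.91, 10.14, 8.63 and 7.83 in hemophagocytes, against 6.87, 6.25, 6.83 and 6.72 in resting macrophages. The groups did not overlap, although hemophagocyte 2 cleared the highest resting array only narrowly. The change was 1.71 (SE 0.53). It was 1.12 without hemophagocyte 3 and 0.71 without hemophagocytes 3 and 5. Cox5b, a zinc-binding subunit on the matrix side, had 7.02, 7.11, 7.44 and 6.56 in hemophagocytes, against 6.63, 6.52, 6.91 and 6.52 in resting macrophages. All but hemophagocyte 6 lay above every resting array, with a change of 0.39 (SE 0.16), which was 0.25 without hemophagocyte 5 and 0.14 without hemophagocytes 3 and 5. Cox7a2 had 7.10, 5.85, 5.98 and 5.94 in hemophagocytes, against 5.87, 6.07, 5.81 and 5.55 in resting macrophages. Hemophagocyte 2 alone stood high, and the change of 0.39 was 0.10 without it.

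Cox5a, which lies beside Cox5b on the matrix side and is given after its values were seen, had 5.87, 6.56, 7.74 and 5.96 in hemophagocytes, against 5.86, 6.26, 6.26 and 5.78 in resting macrophages. Hemophagocyte 5 stood highest, and the change of 0.49 (SE 0.34) was 0.09 without it and -0.13 without hemophagocytes 3 and 5.

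Cox4i1, Cox8a and, by the probe set used, Cox7b stood nearer 0. Cox4i1, the largest nuclear subunit and a site of regulation by ATP, averaged 6.67 ± 0.33 in hemophagocytes and 6.65 ± 0.13 in resting macrophages, a change of 0.02 (SE 0.14). Cox8a had a change of -0.02 (SE 0.12) and Cox7b 0.19 (SE 0.10), but the other probe set of Cox7b had 1.23 and their mean gave 0.71. Isoforms restricted to other tissues did not separate the groups. Cox4i2, the form known from lung and low oxygen, had a change of 0.04, and the muscle and heart forms Cox6a2, Cox7a1 and Cox8b -0.08, -0.12 and 0.04. The testis forms Cox6b2, Cox7b2 and Cox8c had changes of -0.05, -0.21 and -0.12. On hemophagocyte 3, Cox6a1 stood at 9.76, against a mean of 6.28 ± 0.36 in resting macrophages (SD, n = 4). On the same array its muscle partner Cox6a2 stood at 7.27, against 7.52 ± 0.12.

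**Figure D2:**
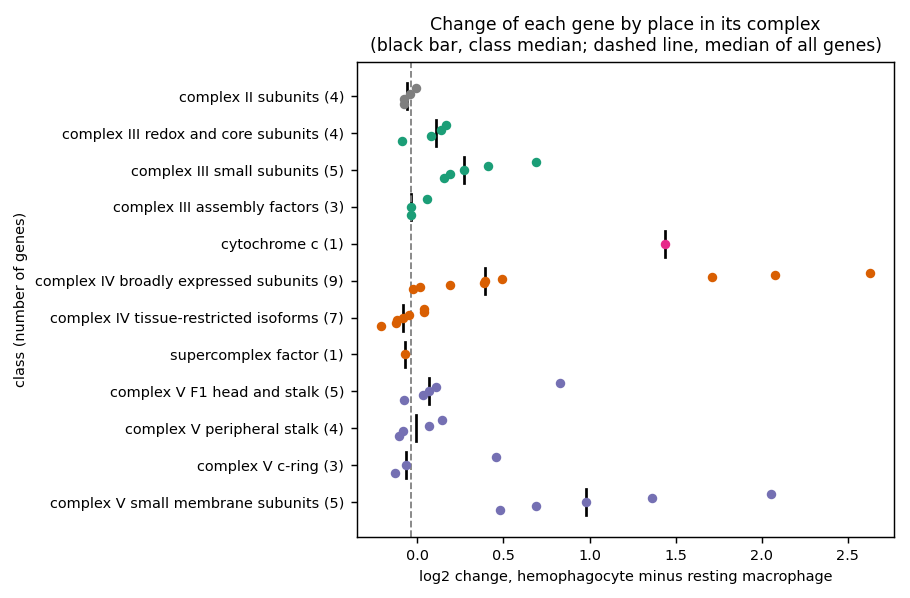
Log2 change of each gene, hemophagocyte minus resting macrophage (horizontal axis), by its place in the complexes (rows, with the number of genes), with the class median as a black bar and the median of all genes, -0.04, as a dashed line. The 5 small membrane subunits of complex V have a median of 0.98 and the 9 broadly expressed subunits of complex IV one of 0.39, and complex II lies near the dashed line.

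In complex V the small subunits of the membrane part carried the higher values. All 5, Atp5j2, Atp5k, Atp5l, Atp5md and Atp5mpl, had changes above 0, from 0.48 to 2.05, with a median of 0.98. The median was 0.34 without hemophagocytes 3 and 5 together and 0.63 without hemophagocyte 5 alone. Among the 5 genes of the F1 head and central stalk, where ATP is made, the median was 0.06, in the 4 of the peripheral stalk -0.01, and in the 3 of the c-ring, the rotor driven by protons, -0.07. The catalytic pair Atp5a1 and Atp5b, picked out for their role after the values were seen, had changes of 0.06 (SE 0.06) and 0.11 (SE 0.11).

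Atp5md, the small protein DAPIT that helps ATP synthase dimers hold together, had 8.88, 7.22, 8.91 and 5.60 on hemophagocytes 2, 3, 5 and 6, against 5.48, 5.65, 5.51 and 5.76 on resting macrophages 3, 4, 5 and 6. It was high on 3 hemophagocyte arrays and within the resting range on hemophagocyte 6. The change was 2.05 (SE 0.60), and 2.74 without hemophagocyte 6 (limma adjusted p = 0.13). It was 1.64 without hemophagocyte 2 and 1.64 without hemophagocyte 5. Atp5mpl, a small proteolipid that accompanies the enzyme, had 8.50, 9.34, 9.15 and 7.55, against 6.72, 7.77, 7.88 and 6.72 in resting macrophages. Hemophagocytes 2, 3 and 5 lay above all resting arrays, the resting arrays themselves spread widely, and the change was 1.37 (SE 0.39). It was 0.76 without hemophagocytes 3 and 5.

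Atp5k, the e subunit at the dimer interface, had 6.05, 6.72, 5.85 and 5.97 in hemophagocytes, against 5.65, 5.73, 5.48 and 5.82 in resting macrophages. The groups did not overlap, but hemophagocyte 5 lay just above the highest resting array. The change was 0.48 (SE 0.17), or 0.29 without hemophagocyte 3. Atp5l, the g subunit, had 7.17, 7.08, 10.12 and 7.34 in hemophagocytes, against 6.97, 6.90, 6.96 and 6.98 in resting macrophages. The groups again did not overlap, yet the change of 0.98 (SE 0.55) rested on hemophagocyte 5 and was 0.25 without it. Atp5e, the epsilon subunit of the central stalk, had 6.49, 6.96, 7.94 and 7.10 in hemophagocytes, against 6.37, 6.10, 6.76 and 5.96 in resting macrophages. Hemophagocyte 2 lay inside the resting range and the others above it, with a change of 0.83 (SE 0.27), which was 0.55 without hemophagocyte 5 and 0.50 without hemophagocytes 3 and 5.

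The c-ring genes Atp5g1, Atp5g2 and Atp5g3 encode one and the same mature protein behind different import signals. Atp5g1 averaged 7.79 ± 0.02 in hemophagocytes and 7.86 ± 0.06 in resting macrophages, a change of -0.07 (SE 0.06), and Atp5g2 had a change of -0.13 (SE 0.09). Atp5g3 had 7.50, 8.92, 8.22 and 7.59 in hemophagocytes, against 7.43, 7.61, 7.65 and 7.72 in resting macrophages. Its change of 0.46 (SE 0.26) came from hemophagocytes 3 and 5 and was -0.06 without them. The 18 members of all complexes that the naming rule did not choose had changes between -0.11 and 0.69. Cox7a2l was among them, at -0.07, and its other probe set had a change of -0.45.

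**Figure D3:**
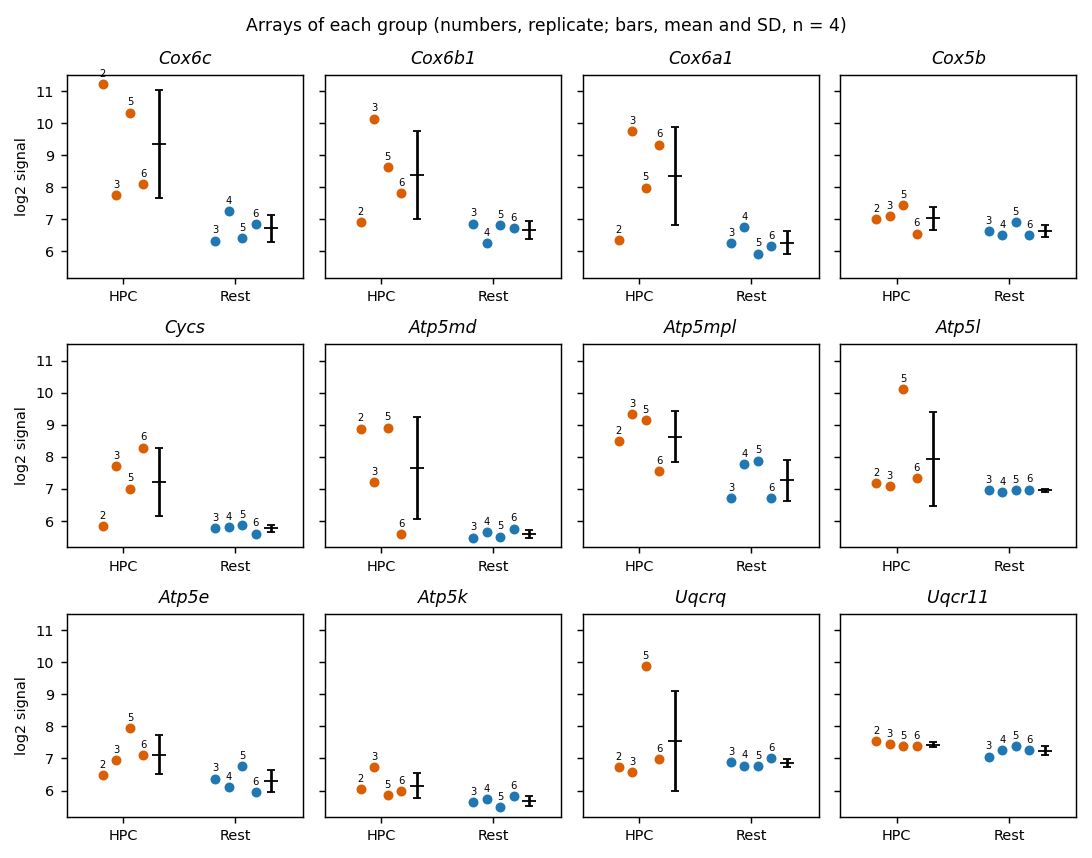
Log2 signal of 12 of the named genes on every array, hemophagocytes (orange, HPC) left and resting macrophages (blue, Rest) right, with replicate numbers beside the points and mean and SD as bars (n = 4 each). The high points belong to different hemophagocytes in different genes, such as hemophagocyte 2 in Cox6c at 11.23, hemophagocyte 3 in Cox6b1 at 10.14 and hemophagocyte 5 in Atp5l at 10.12.

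Counted over arrays, 15 of the 51 members stood more than 1 log2 unit above their own median over the 8 arrays on at least 1 array, and 0 of the 15 did so on a resting array. Hemophagocytes 2, 3, 5 and 6 held 4, 8, 10 and 2 such members. Among all genes the same arrays held 13, 154, 159 and 30, and each resting array 7 to 16. On hemophagocyte 2 the members were Atp5md, Cox6c, Cox7a2 and Uqcrh, which made up 4 of the 13 genes that stood so high there. On hemophagocyte 6 they were Cox6a1 and Cycs. No member was among them on all 4 hemophagocyte arrays, but a member's own median rises with those arrays, so this mark could hardly be met on all 4. Cox6c, above every resting array on each of the 4, met the mark only on hemophagocytes 2 and 5. A few markers of cell types also stood high on the 2 arrays with the most such members, while most markers of the same lists did not. The mean log2 level of 18 macrophage markers was 6.46, 6.89, 7.33 and 6.51 on hemophagocytes 2, 3, 5 and 6, against 6.56 to 6.69 on resting arrays, and 11 of the 18 had changes above 0. The median marker deviated from its resting mean by 0.01, 0.02, 0.25 and -0.01 on these hemophagocytes. Cd68, a lysosomal macrophage protein, had 7.21, 9.66, 10.52 and 7.50 in hemophagocytes, against 7.29 to 7.50 in resting macrophages. Hemophagocytes 3 and 5 were high in it and hemophagocytes 2 and 6 were not. The mean of 11 neutrophil markers (4 with changes above 0) was 6.29, 6.92, 6.54 and 6.48 in hemophagocytes, against 6.23 to 6.36 in resting macrophages, and that of 7 platelet markers (4 above 0) was 6.66, 7.10, 7.07 and 6.47, against 6.66 to 6.84. The median deviations on hemophagocytes 2, 3, 5 and 6 were 0.07, -0.11, 0.01 and 0.04 for neutrophil and 0.02, -0.11, 0.04 and -0.10 for platelet markers. In the platelet list Pf4, platelet factor 4, alone reached 10.35 on hemophagocyte 3 and 9.11 on hemophagocyte 5, against 6.61 to 7.41 in resting macrophages. The part of these markers in the members' values was not tested. Without hemophagocytes 3 and 5, 4 members kept a change above 1, namely Cox6c, Cox6a1, Atp5md and Cycs, against 0.135% of genes.

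The hemophagocyte arrays varied more in 42 of the 51 members, against 60.3% of all genes, with a median SD of 0.24 in hemophagocytes and 0.12 in resting macrophages.

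Members with several probe sets allowed a check within arrays. In 13 of 14 such members all probe sets had changes of the same sign, Cycs being the exception. All 6 probe sets of Atp5l were highest on hemophagocyte 5, with changes of 0.61 to 1.25. Both probe sets of Cox6c were highest on hemophagocyte 2, with changes of 1.71 and 2.63, and those of Atp5md had changes of 1.11 to 2.05. In the Cox6c probe set not used, hemophagocytes 3 and 6 lay only just above the resting arrays, at 5.95 and 5.94 against 5.57 to 5.81. In Cox7b the probe set not used had a change of 1.23, against 0.19 in the one used, and both were highest on hemophagocyte 3. Probe sets of a gene may share target sequence, and many genes of this pathway have processed pseudogenes, so how far they read the transcript separately was not tested.

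**Figure D4:**
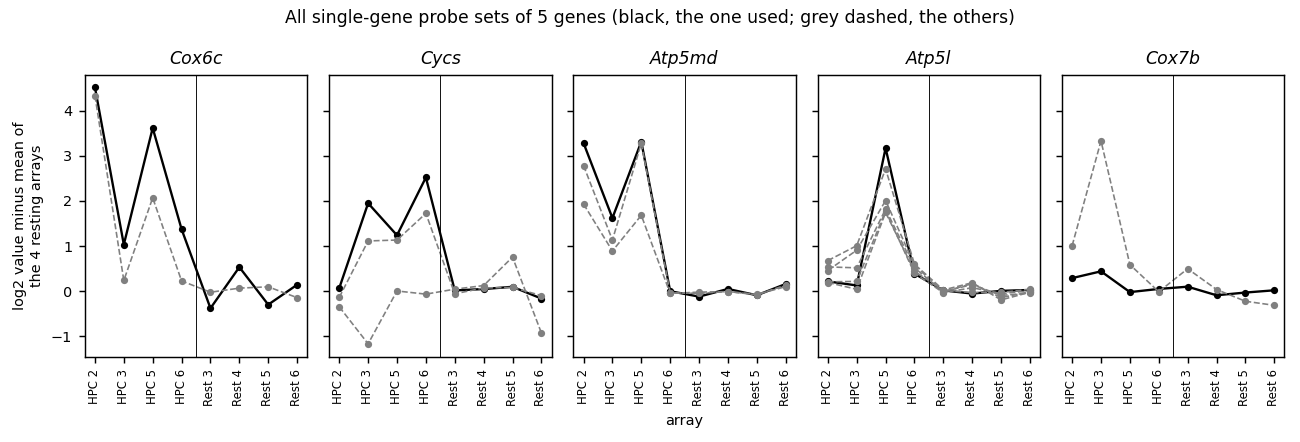
All single-gene probe sets of 5 genes, as the log2 difference from the mean of the 4 resting arrays (vertical axis) on each array, hemophagocytes left and resting macrophages right, with the probe set used in black and the others dashed in grey. All 6 probe sets of Atp5l peak on hemophagocyte 5, whereas 1 of 3 of Cycs runs against the others, with a change of -0.39.

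In the neighbouring parts of the pathway no gene passed the test over all genes either. Of 36 complex I subunits, 0 were called by limma, 5 were higher and 1 was lower at an unadjusted p under 0.05, 29 had changes above 0, and the median was 0.08. Over all genes, 1.53% were higher and 5.05% lower at that p, and 36.1% had changes above 0. Ndufb8 and Ndufa8, both accessory subunits, had changes of 0.61 (SE 0.10) and 0.33 (SE 0.08). They were among 4 subunits that lay higher without overlap of the groups, against 0.802% of genes, and 1 subunit lay lower so, against 2.9%. Ndufa4, counted there by its symbol but now assigned to complex IV, had 5.85, 9.84, 6.13 and 5.78 in hemophagocytes, against 5.89 to 6.18 in resting macrophages, so that hemophagocyte 3 alone stood high. Its change of 0.84 (SE 0.74) was -0.14 without that array. Of 3 subunits assigned late to complexes IV and V, Ndufa4 among them, 0 had that p. Of 13 citric acid cycle genes, 0 were called, 0 were higher and 1 was lower at that p, with a median of 0.00: Idh3g and Idh3b, subunits of isocitrate dehydrogenase, had changes of -0.19 and 0.14. Their groups did not overlap either, with Idh3g lower and Idh3b higher.

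The lists of factors that build or control the complexes had medians near 0. Of 14 cytochrome c oxidase assembly genes, 0 were called and 2 were higher at that p, Cox14 (0.28) and Coa3 (0.29), both partners in the early assembly of the mitochondrially encoded core, and the median was 0.01. The largest change of that list was outside the rule for naming and is given after its values were seen: Cox17, which carries copper to the oxidase, had 5.53, 8.80, 7.27 and 5.20 in hemophagocytes, against 5.25, 5.23, 5.54 and 5.53 in resting macrophages. Hemophagocytes 3 and 5 alone stood high, and the change of 1.31 (SE 0.63) was -0.02 without them. Of 11 assembly and control genes of complexes II, III and V, 0 were called, 0 were higher and 1 was lower at that p, Bcs1l (-0.25), which inserts the Rieske protein into complex III, and the median was -0.04. The ATP synthase assembly factor Atpaf1 had a change of -0.17. In Atpaf1 and Bcs1l all hemophagocyte arrays lay below all resting arrays. Of 12 regulators of mitochondrial biogenesis, 0 were called and 0 had that p, with a median of 0.02. Tfam, which packages and transcribes mitochondrial DNA, had a change of 0.15, and the coactivator Pprc1 -0.14. Of 7 carriers and channels, 0 had that p, with Slc25a5 and Slc25a4, which exchange ADP for ATP, at 0.41 (SE 0.36) and 0.29 (SE 0.27). Hemophagocyte 3 alone stood high in both, and without it their changes were -0.06 and -0.05. The transcript COX2, the complex IV subunit encoded in mitochondrial DNA, was added after the values of the members were seen. It had 8.22, 10.28, 9.95 and 9.51 on hemophagocytes 2, 3, 5 and 6, against 7.19, 10.40, 10.19 and 10.29 on resting macrophages 3, 4, 5 and 6. Its lowest values were those of hemophagocyte 2 and resting macrophage 3, and the change was -0.03 (SE 0.68). It was 0.40 without hemophagocyte 2, -0.80 without resting macrophage 3 and -0.38 without both.

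Array medians lay between 6.10 and 6.17 in both groups together. Correlations across genes ran from 0.940 to 0.965 among hemophagocyte arrays, from 0.968 to 0.975 among resting arrays and from 0.929 to 0.974 between the groups. Erythroid markers (8 genes, 3 with changes above 0) averaged 6.41 to 6.49 on hemophagocyte arrays and 6.43 to 6.52 on resting arrays, B cell markers (8 genes, 3 above 0) 6.34 to 6.59 and 6.49 to 6.67, and T cell markers (9 genes, 4 above 0) 6.42 to 6.56 and 6.51 to 6.56. NK cell markers averaged 5.60 to 5.97 on hemophagocyte arrays and 6.01 to 6.08 on resting arrays, without overlap. Of these, 8 of 9 had changes below 0, against 12747 of all 19938 genes, with a median of -0.23. At an unadjusted p under 0.05, 2 (22.2%) were lower, against 5.05% of genes. The T cell list had the same share lower at that p, 2 of 9 (22.2%), the erythroid list 1 of 8 (12.5%) and the B cell list 0. The olfactory and vomeronasal receptors shifted the same way: 1086 of 1194 had changes below 0, with a median of -0.15, and 17.7% were lower at that p. Endothelial and muscle markers (8 genes each, 4 above 0 in each) averaged 6.39 to 6.49 and 6.51 to 6.61 in hemophagocytes, against 6.41 to 6.52 and 6.49 to 6.66 in resting macrophages. An array value has no true zero, so none of these can be called absent, and their part in the members' values was not tested either.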

How the data were processed

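The members and gene lists were chosen with earlier results of these data known. Per the labels' protocols, RNA from the dissected cells went through WT-Ovation One-Direct amplification before biotin labelling. Each deposited value is a log2 signal of a probe set on an array, a scale read off the values themselves. The submitters' processing notes name Affymetrix Expression Console 1.1, and the sources used here do not give its background correction, summary or normalization. No further scaling or filter was applied. Of 35556 probe sets, 21789 had 1 gene symbol, 1621 had several and 12146 were not listed. Only those with 1 symbol were used. All 51 members matched RefSeq's gene table by Entrez identifier, with 0 symbols altered. Arrays were grouped by title, and the 4 hemophagocyte arrays were set against the 4 resting macrophage arrays by limma 3.58.1 (R 4.3.3, moderated test of lmFit and eBayes, two-sided, no block). Adjustment ran over all genes, with a threshold of 0.05, after a trial on simulated data. The number of arrays, 4 a group, limits the precision.

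The text names, from each complex, the members whose groups do not overlap, the 4 of smallest p, the 3 of largest change and the isoform families, and up to 2 genes of smallest p from each other list. A change smaller than its standard error was given no direction when alternatives were compared. The 16 alternatives planned were other normalizations (quantile, median, cyclic loess), dim genes left out, an intensity trend and robust prior, weights per array, probe sets averaged per gene, a replicate block and each array omitted in turn. Omitting hemophagocytes 3 and 5, or hemophagocyte 2 with resting macrophage 3, was added after seeing the data.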

Additional observations from a re-analysis of the deposited data

Results flagged for a closer look

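In 6 of 102 member and group combinations, 1 array of a group of 4 stood far from the others. Chance gives about 1 in 20 such groups, so the number is near what chance gives. Of the 6, 5 were hemophagocyte arrays. Uqcrq stood at 9.88 on hemophagocyte 5, with the nearest other hemophagocyte at 6.99, and Atp5l at 10.12 on the same array, with the nearest at 7.34. Cox7a2 stood at 7.10 on hemophagocyte 2 (nearest 5.98), Uqcc2, a complex III assembly factor, at 8.12 on hemophagocyte 3 (nearest 7.78), and Atp5g1 at 7.82 on hemophagocyte 2 (nearest 7.78), a gap of a few hundredths in a group that hardly varied. Among resting macrophages, Atp5o, the OSCP subunit that ties the peripheral stalk to the F1 head, stood at 5.32 on array 4 (nearest 4.87).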

How the results depend on the processing

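With limma, the count of genes called higher over all genes, 2 as deposited, was 1 with median centring, cyclic loess normalization or an intensity trend with a robust prior, 5 without hemophagocyte 2 and resting macrophage 3, and 1 to 11 with each array left out. Members called, 0 as deposited, ranged from 0 to 2 with each array left out, and the 2, Cox6a1 and Cycs, came without hemophagocyte 2 and were not called with resting macrophage 3 left out too. Members at an unadjusted p under 0.05 and lower, 0 as deposited, were 0 to 1 with each array left out, 2 without hemophagocytes 3 and 5, and 1 without hemophagocyte 2 and resting macrophage 3. Members whose groups did not overlap, 4 as deposited, were 4 to 8 with each array left out and 10 without hemophagocyte 2 and resting macrophage 3. Fewer arrays raise this count by construction, and the shares of all genes were 0.802% as deposited, 1.34% to 2.11% with each array left out and 3.03% without those 2 arrays. The median change of complex III was 0.19 with cyclic loess normalization, 0.06 to 0.16 with each array left out and 0.02 without hemophagocytes 3 and 5. That of complex V was 0.28 with dim genes left out, where fewer genes were tested, and that of its small membrane subunits 0.34 without hemophagocytes 3 and 5. The change of Uqcrq ranged from -0.09 to 1.01 and that of Uqcrh from -0.01 to 0.65 with each array left out. Uqcrh had -0.07 without hemophagocyte 2 and resting macrophage 3, and Atp5g3 -0.06 without hemophagocytes 3 and 5. The cause of these shifts was not tested beyond the arrays left out. Members with a change above 1, 6 as deposited, were 6 or 7 under the other normalizations and 4 without hemophagocytes 3 and 5. They were 5 with probe sets averaged per gene, where Cycs had 0.67, and 6 to 8 with each array left out. With a replicate block, or without hemophagocyte 2 and resting macrophage 3, they were 8. The share of all genes ran from 0.135% to 0.552% over the settings.

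Same-numbered arrays of the groups were checked for pairing, and their deviations from the group means correlated at 0.174 for number 3, 0.066 for number 5 and 0.118 for number 6. Hemophagocytes 3 and 6 correlated best with the resting array of their own number. Hemophagocyte 5 correlated better with resting macrophages 4 and 6, at 0.104 each. The check was thus mixed, and the numbers were not taken to pair the arrays. With the replicate number as a block, 7 genes were called higher, 1 member was called (Cox6a1, limma adjusted p = 0.040) and 1 member was lower at an unadjusted p under 0.05. Numbers 2 and 4 occur in 1 group each, so hemophagocyte 2 and resting macrophage 4 did not contribute to these changes. The block setting thus rested on numbers 3, 5 and 6 and left out hemophagocyte 2, which lay inside the resting range in Cox6a1.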
